A study of Mus musculus with 12 samples.

Results

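The mouse genes of classical MHC class I presentation were followed through lung and ileum on bead arrays, as 10 genes listed by name for their role, with earlier results of these data known: the transactivator Nlrc5, the immunoproteasome subunits Psmb8, Psmb9 and Psmb10, the transport and loading genes Tap1, Tap2 and Tapbp, and the class I molecule itself, B2m, H2-K1 and H2-D1. Every probe annotated to them was taken, which gave 20 of the 45281 probes of the MouseWG-6 v2.0 array, and these genes are 10 of 19057 that a probe names alone. In the exposed groups, hyperoxia ileum and hyperoxia lung, C57BL/6 pups (C57Bl/6J in the methods) breathed 85% oxygen between day 3 and day 14 of life. The control groups, normoxia ileum and normoxia lung, breathed 21% oxygen over the same days. No group carries a genetic change in the labels, and all were sampled at 14 days, with 3 arrays each, 12 in all. The tissue was a section of terminal ileum, or lung, which the labels give as right lung and the methods as left lower lobe. The sources do not state that replicates were separate animals, and a p-value here therefore reflects the spread among the arrays of a group, part or all of which may be technical. Pooled litters were assigned whole to an exposure, with several litters in each exposure group of the study. The labels give no litter for any array, so the part of the litter was not tested.

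Class I molecules show peptides cut from a cell's own proteins to CD8 T cells. Proteins are cut by the proteasome, and interferon-gamma replaces the catalytic subunits of the constitutive particle with those of the immunoproteasome. The peptides are then pumped by the TAP transporter into the endoplasmic reticulum, loaded with the help of tapasin onto a heavy chain bound to beta-2-microglobulin, and carried to the surface. In epithelium these genes are known as targets of interferon signalling, and lymphocytes express them at a high level.

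The source name of 6 of the 12 arrays names the other tissue, and arrays were grouped by their tissue label. The 8 measured ileum markers had a mean log2 signal of 11.37 to 12.29 on the arrays labelled ileum and of 4.73 to 4.90 on those labelled lung. The 9 lung markers had a mean of 5.19 to 5.49 on the arrays labelled ileum and of 13.11 to 13.29 on those labelled lung. Each array detected between 42.6% and 46.0% of the probes. Between replicates the r of normalized log2 signals over all probes was 0.972 to 0.992. The signal over background, here the 95th percentile of the intensities over the median of undetected probes, was 11.8 to 13.7 in hyperoxia ileum and 16.2 to 16.6 in normoxia ileum, with no overlap. It was 15.1 to 19.9 in hyperoxia lung and 16.1 to 17.4 in normoxia lung.

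Some of the genes lie close together, while B2m is on chromosome 2 and Nlrc5 and Psmb10 are on chromosome 8. In the RefSeq annotation of GRCm38.p6, Psmb9, Tap1, Psmb8 and Tap2 follow one another on chromosome 17 with no other protein-coding gene between them, and H2-K1, Tapbp and H2-D1 are on the same chromosome. Psmb9 and Tap1 run in opposite directions from starts with 225 bases between them, so that the 250 bases before each start overlap over those 225. Of the 10 genes, 8 had a window in the RefSeq promoter table. The 250 bases before the start are printed for the 5 genes named next, since they stand for successive steps of the pathway and all were called lower in ileum. Capitals mark a match, on either strand, to one of the motifs searched: GAAA followed by any 2 bases and GAAA (the core of the interferon-stimulated response element), TTCNNNGAA (the gamma-activated site), GGGNNTTCC (kappa-B), CCAAT (the box bound by NF-Y) and TGACGC (within the X2 element). The Psmb8 window is chr17:34197945-34198194 (plus strand), that of Tap1 is chr17:34187306-34187555 (plus strand), that of B2m is chr2:122147437-122147686 (plus strand), that of H2-K1 is chr17:34000348-34000597 (minus strand) and that of H2-D1 is chr17:35262844-35263093 (plus strand), all in GRCm38.p6.
Psmb8: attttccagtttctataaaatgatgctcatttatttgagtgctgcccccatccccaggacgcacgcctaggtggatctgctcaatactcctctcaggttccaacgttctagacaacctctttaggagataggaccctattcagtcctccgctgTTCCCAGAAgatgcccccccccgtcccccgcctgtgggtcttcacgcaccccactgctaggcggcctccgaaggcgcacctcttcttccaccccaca
Tap1: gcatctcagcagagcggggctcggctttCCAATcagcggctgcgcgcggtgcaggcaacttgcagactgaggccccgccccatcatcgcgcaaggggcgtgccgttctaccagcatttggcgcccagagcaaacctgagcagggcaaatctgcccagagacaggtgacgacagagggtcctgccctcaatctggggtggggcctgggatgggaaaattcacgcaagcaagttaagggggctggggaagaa
B2m: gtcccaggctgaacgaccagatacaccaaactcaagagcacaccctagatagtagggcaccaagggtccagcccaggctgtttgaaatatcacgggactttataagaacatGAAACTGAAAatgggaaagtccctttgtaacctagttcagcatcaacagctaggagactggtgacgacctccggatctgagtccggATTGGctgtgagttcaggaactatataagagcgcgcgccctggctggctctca
H2-K1: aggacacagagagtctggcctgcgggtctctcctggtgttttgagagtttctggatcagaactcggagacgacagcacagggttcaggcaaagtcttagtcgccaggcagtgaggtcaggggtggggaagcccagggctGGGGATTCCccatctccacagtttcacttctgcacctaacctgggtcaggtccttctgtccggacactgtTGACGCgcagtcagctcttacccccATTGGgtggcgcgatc
H2-D1: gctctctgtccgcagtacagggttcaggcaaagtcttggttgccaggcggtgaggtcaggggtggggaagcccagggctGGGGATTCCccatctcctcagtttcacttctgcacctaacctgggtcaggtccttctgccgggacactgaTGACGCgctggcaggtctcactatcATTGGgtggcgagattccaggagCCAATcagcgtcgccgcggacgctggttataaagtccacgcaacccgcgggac

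H2-K1 and H2-D1 held the same kappa-B match, GGGGATTCC, and the same TGACGC match further downstream. The letters around the kappa-B match are near-identical in these windows, so the matches of the 2 genes are not independent. RefSeq listed 2 windows for H2-K1, and the first was used. The kappa-B letters were found in 2 of the 8 windows, against 4.98% of all 32851 windows of this length, and TGACGC in 2 of the 8 against 6.12%. CCAAT was found in 6 of the 8, against 33.8% of all windows. The interferon-stimulated response element core was found in B2m, against 2.98% of all windows, and the gamma-activated site in Psmb8, against 7.02%. The CCAAT matches of Psmb9 and Tap1 are the same bases of their shared stretch, read on opposite strands, so the 6 genes hold fewer separate sites. Within a window no matches overlapped. These are matches of letters within 250 bases and not measured binding sites. Variants of a motif with other letters were not searched, so a window without a match may still hold one.

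Hyperoxia against normoxia in the ileum asked how the exposure of the whole animal to oxygen bore on presentation in the gut. Of the 10 genes, 9 fell and 5 of these fell at least 2-fold (Psmb8, Nlrc5, Tap1, Psmb9 and Psmb10), and Tap2 did not pass the test. Of all 11178 genes tested in the ileum, 14.1% fell, 12.7% rose and 4.61% fell at least 2-fold. For all 10 genes the 3 hyperoxia arrays lay below the 3 normoxia arrays, as they did for 21.1% of all genes tested. The median log2 fold change was -1.18 over the 10 genes and -0.03 over all genes. Calls were made at an adjusted p under 0.05 from limma, adjusted over all tested genes. In bulk tissue, fewer cells of a type and less RNA per cell cannot be told apart.

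**Figure D1:**
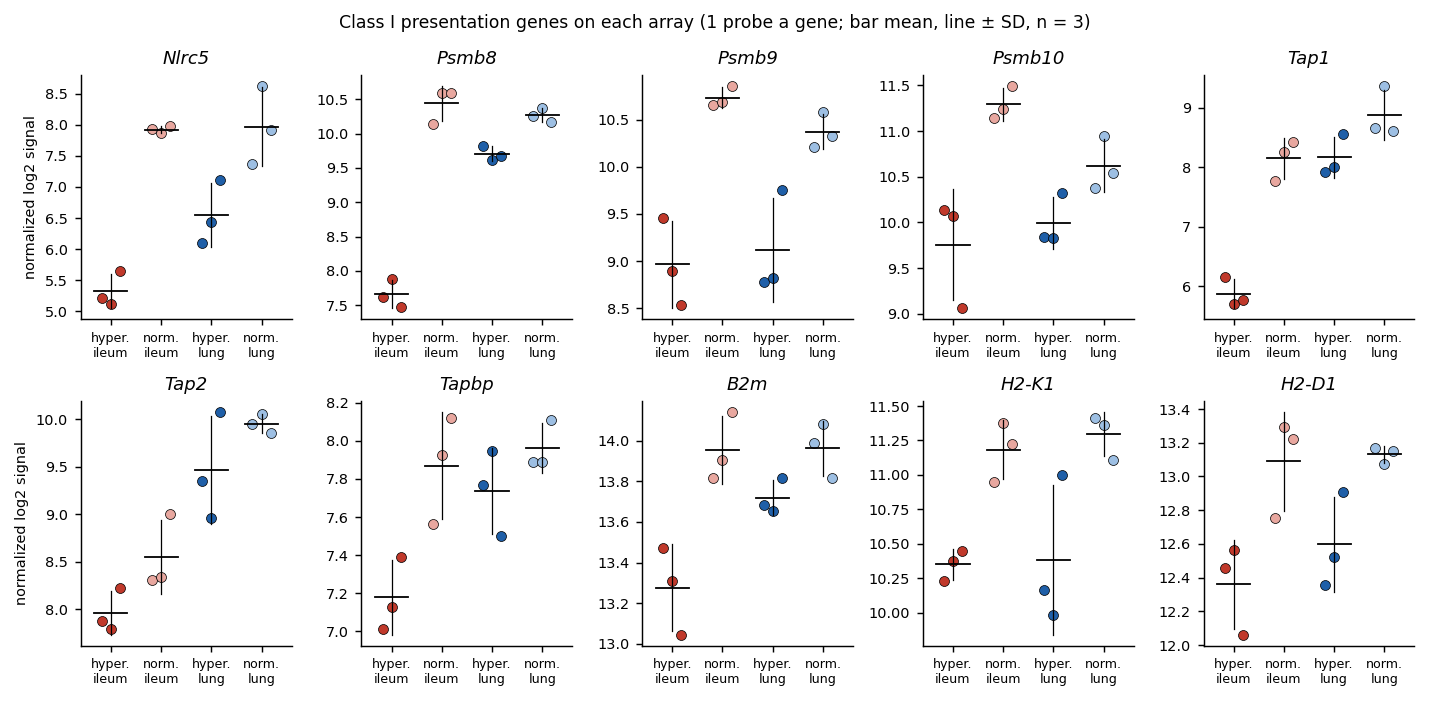
Normalized log2 signal of the 10 genes (1 probe each, its own axis) on each array, in the order hyperoxia ileum, normoxia ileum, hyperoxia lung and normoxia lung, with points for replicates 1 to 3, a bar for the mean and a line for ± SD (n = 3). In ileum, no hyperoxia array reaches a normoxia array for any gene, and the widest gap is that of Psmb8 (7.66 ± 0.21 in hyperoxia and 10.44 ± 0.26 in normoxia).

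Nlrc5, the transactivator that turns on class I genes, had log2 signals of 5.22, 5.12 and 5.64 in hyperoxia ileum, against 7.93, 7.86 and 7.97 in normoxia ileum. The normoxia arrays lay within a narrow band, and all hyperoxia arrays were far below it. Its log2 fold change was -2.60 (standard error 0.30, adjusted p = 8.11e-05 from limma). The probe passed the detection limit on 1 of the 3 hyperoxia arrays and on all normoxia arrays, so the size of this change rests on signals near background. Without background correction it was -1.22.

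Psmb8, the beta-5i subunit that cuts after hydrophobic residues, had log2 signals of 7.62, 7.89 and 7.48 in hyperoxia ileum, against 10.15, 10.60 and 10.59 in normoxia ileum. It was 6.87-fold lower, the change of the 10 with the smallest p, and its rank by p among the 11178 genes was 8 (log2 fold change -2.78, standard error 0.17, adjusted p = 3.59e-07 from limma). Its other probe, of much lower signal, had a log2 fold change of -2.47.
Psmb9, the beta-1i subunit, had 9.46, 8.89 and 8.54 in hyperoxia ileum, against 10.66, 10.68 and 10.86 in normoxia ileum. The hyperoxia arrays were spread more widely than the normoxia arrays, and none overlapped. Its log2 fold change was -1.77 (standard error 0.27, adjusted p = 7.94e-04 from limma).
Psmb10, the beta-2i subunit, had 10.14, 10.07 and 9.06 in hyperoxia ileum, against 11.14, 11.24 and 11.50 in normoxia ileum. Replicate 3 of hyperoxia ileum was about a log2 unit below the other hyperoxia arrays. The log2 fold change of Psmb10 was -1.53 (standard error 0.27, adjusted p = 0.00190 from limma), and without that replicate it was -1.19.

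Tap1, a chain of the peptide transporter, had log2 signals of 6.16, 5.70 and 5.77 in hyperoxia ileum, against 7.77, 8.26 and 8.43 in normoxia ileum. It was 4.84-fold lower, or -2.27 on the log2 scale (standard error 0.25, adjusted p = 6.43e-05 from limma), and -1.21 without background correction. Its partner chain Tap2 had 7.87, 7.79 and 8.22 in hyperoxia ileum, against 8.31, 8.34 and 9.00 in normoxia ileum. The groups of Tap2 did not overlap, but replicate 3 of hyperoxia ileum came close to the nearest normoxia array. The log2 fold change of Tap2 was -0.59 (standard error 0.26, 95% confidence interval -1.16 to -0.03, adjusted p = 0.108 from limma). Tapbp, which encodes tapasin and holds the empty class I molecule at the transporter, lay between 7.01 and 7.39 in hyperoxia ileum and between 7.56 and 8.12 in normoxia ileum. Its log2 fold change was -0.69 (standard error 0.19, adjusted p = 0.0166 from limma).

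The fold changes of the class I molecule were smaller than those of Nlrc5, Tap1 and the immunoproteasome subunits. They were near those of Tap2 and Tapbp. B2m, the invariant light chain, lay between 13.04 and 13.47 in hyperoxia ileum and between 13.82 and 14.14 in normoxia ileum, and changed by -0.68 on the log2 scale (standard error 0.16, adjusted p = 0.00964 from limma). H2-K1, a classical heavy chain, had 10.23, 10.37 and 10.45 in hyperoxia ileum, against 10.95, 11.37 and 11.23 in normoxia ileum. Its log2 fold change was -0.83 (standard error 0.23, adjusted p = 0.0192 from limma). H2-D1, the other classical heavy chain, had 12.45, 12.56 and 12.06 in hyperoxia ileum, against 12.76, 13.29 and 13.22 in normoxia ileum. Its log2 fold change was -0.73 (standard error 0.20, adjusted p = 0.0179 from limma). By the brightest probe of each gene, the changes of the class I molecule were 1.60-fold to 1.78-fold. Those of the immunoproteasome subunits were 2.90-fold to 6.87-fold, and the difference between these groups of genes was not tested. The B2m and H2-D1 probes were brighter than those of the immunoproteasome subunits. The part of probe brightness in the size of the changes was not tested.

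The ileum calls did not all rest on the same footing. Psmb8, Psmb9, Psmb10 and Tap1 were called under all 25 alternatives, and Nlrc5 under the 24 that tested it. Tapbp, H2-K1 and H2-D1 lost the call without normoxia ileum replicate 2 and without replicate 3, and 6 of the 10 genes were then called, while H2-D1 also lost it without hyperoxia ileum replicate 3. With ileum fitted alone 6 of the 10 were called, as Tapbp, B2m and H2-D1 lost the call. H2-K1 lost it with an ordinary linear model. With the signal over background of each array in the model, 7 of the 10 were called. Tap2 gained a call (-1.25), while Tapbp (-0.43), B2m (-0.80) and H2-D1 (-1.04) lost theirs, and the median over the 10 genes was -1.69. That measure does not overlap between the exposure groups in ileum, and it and the exposure cannot be told apart.

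Hyperoxia against normoxia in the lung set the same genes in the organ that meets the oxygen first. Of the 10 genes, 4 fell (Nlrc5, Psmb9, H2-K1 and Psmb8), and 2 of these, Nlrc5 and Psmb9, fell at least 2-fold. Of all 11214 genes tested in the lung, 10.6% fell and 4.62% fell at least 2-fold. The groups did not overlap for 7 of the 10 genes, with hyperoxia lower, as for 20.9% of all genes tested. The median log2 fold change was -0.60 over the 10 genes and 0.02 over all genes.

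Nlrc5 had log2 signals of 6.10, 6.44 and 7.11 in hyperoxia lung, against 7.38, 8.63 and 7.91 in normoxia lung. The arrays of each group were spread over about a log2 unit or more, and the gap between the groups was narrow. Its log2 fold change was -1.42 (standard error 0.30, adjusted p = 0.00388 from limma), and without background correction it was -0.82, which is below 2-fold. Psmb9 had 8.78, 8.82 and 9.75 in hyperoxia lung, against 10.21, 10.58 and 10.32 in normoxia lung, so its log2 fold change was -1.26 (standard error 0.27, adjusted p = 0.00435 from limma). H2-K1 had 10.17, 9.98 and 11.00 in hyperoxia lung, against 11.41, 11.36 and 11.11 in normoxia lung. Its replicate 3 of hyperoxia lung lay near the lowest normoxia array, and the log2 fold change was -0.91 (standard error 0.23, adjusted p = 0.0127 from limma).

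Psmb8 had 9.83, 9.62 and 9.68 in hyperoxia lung, against 10.26, 10.38 and 10.17 in normoxia lung. Both groups were tight, and its log2 fold change of -0.56 (standard error 0.17) had an adjusted p of 0.0331 from limma. This call was lost when any of the 6 lung arrays was left out, with values between -0.51 and -0.62. Tap1 had 7.92, 8.01 and 8.56 in hyperoxia lung, against 8.66, 9.37 and 8.61 in normoxia lung, groups that nearly touched, with a log2 fold change of -0.72 (adjusted p = 0.0600 from limma). H2-D1 (-0.53, adjusted p = 0.0756 from limma) and Psmb10 (-0.63, adjusted p = 0.119 from limma) did not pass, although their groups did not overlap. Tap2, Tapbp and B2m had overlapping groups, with log2 fold changes of -0.49, -0.22 and -0.24.

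Replicate 3 of hyperoxia lung was the highest of its group for 8 of the 10 genes. Without it, 6 of the 10 were called. Without normoxia lung replicate 1, hyperoxia lung replicate 1 or hyperoxia lung replicate 2, 2 genes were called, and H2-K1 was not among them. Psmb9 and Nlrc5 were called under all 25 alternatives.

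**Figure D2:**
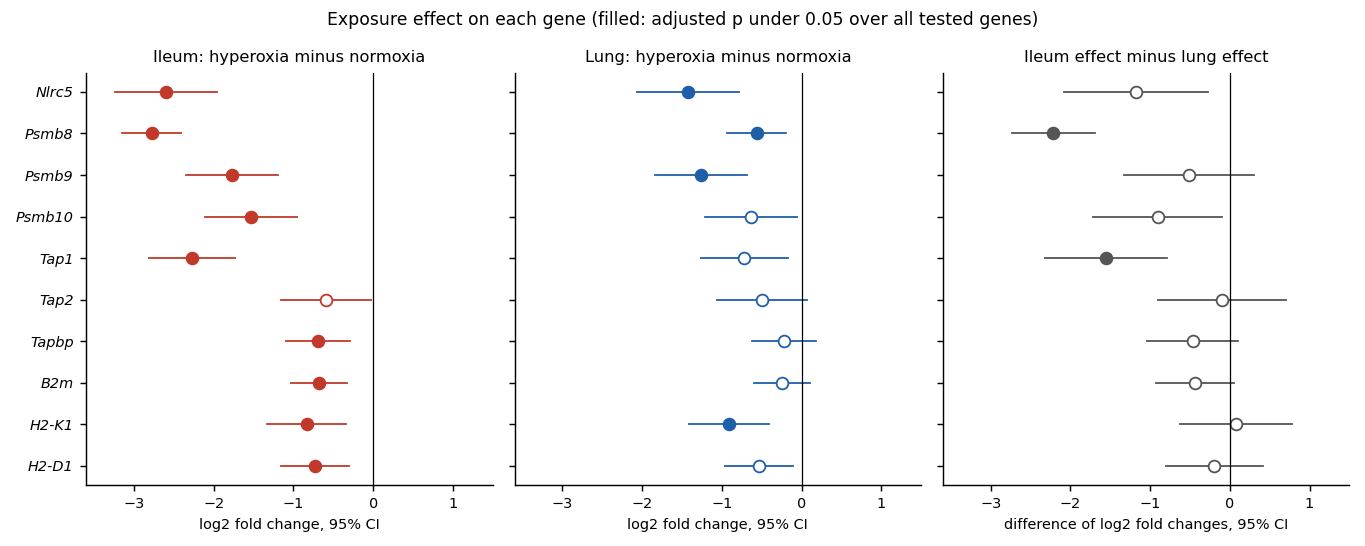
Log2 fold change (points) with its 95% confidence interval (lines) for each of the 10 genes in ileum, in lung and for the ileum effect minus the lung effect, with filled points for an adjusted p under 0.05 from limma. All 20 fold changes lie below 0, and the difference is filled for Psmb8 (-2.22) and Tap1 (-1.56).

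The ileum effect was then set against the lung effect in the same model. The difference passed the test for 2 of the 10 genes, Psmb8 and Tap1, whose effect was more negative in ileum. Of all 10228 genes tested for the difference, 14.1% had a called difference in this direction. The difference of log2 fold changes was -2.22 for Psmb8 (standard error 0.24, adjusted p = 6.55e-05 from limma) and -1.56 for Tap1 (standard error 0.36, adjusted p = 0.00701 from limma). Without background correction Tap1 had -0.66 and lost the call, with an adjusted p of 0.0689 from limma (range over alternatives 5.08e-04 to 0.0689). For Nlrc5 the difference was -1.17 (95% confidence interval -2.08 to -0.27, adjusted p = 0.0523 from limma), and it was called under 5 of 23 alternatives. For H2-K1 it was 0.08, with an interval of -0.63 to 0.78, and for Tap2 -0.10, with an interval of -0.90 to 0.70, so a difference of some size in either direction cannot be told from none at this number of arrays.

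Between the tissues of pups that breathed normal air, 7 of the 10 genes did not pass the test. Normoxia ileum minus normoxia lung was called for 3 of the 10 genes, against 55.5% of all 12153 genes tested, and 29.4% of all those genes were lower in ileum and 26.1% higher. Tap2 was lower in normoxia ileum than in normoxia lung, by a log2 difference of -1.41 (standard error 0.26, adjusted p = 4.14e-04 from limma), and the arrays did not overlap (8.31 to 9.00 in ileum and 9.86 to 10.06 in lung). Tap1 was also lower in normoxia ileum (-0.73, adjusted p = 0.0241 from limma), a call that was lost under 4 of 24 alternatives, among them without normoxia lung replicate 2 and without normoxia ileum replicate 1, while Psmb10 was higher there (0.67, adjusted p = 0.0476 from limma), a call that was lost under 13 of 24 alternatives. The difference was -0.01 for B2m, with a 95% confidence interval of -0.36 to 0.34, and -0.05 for Nlrc5, with an interval of -0.69 to 0.59. Within ileum the order of Tap1 and Tap2 cannot be read from these signals, since each probe has its own brightness.

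The probes of a gene were then read one by one. Of the 20 probes, 17 were tested in ileum and 15 fell, against 12.9% of 17029 probes, and 18 were tested in lung and 6 fell, against 9.44% of 17272 probes. One probe each of B2m and H2-D1 was detected on no array. The dimmest probe of H2-K1 was detected on none of the hyperoxia ileum arrays and on 2 of 3 normoxia ileum arrays, and was not tested there. The 2 probes of Psmb10 had log2 fold changes of -1.53 and -1.43 in ileum, and the 2 tested probes of B2m had -0.67 and -0.68. The 2 probes of Tapbp differed, with -0.69 and -1.23 in ileum, the second with overlapping groups, and with -0.22 and 0.04 in lung. The 3 tested probes of H2-D1 all fell in ileum, the brightest by 0.73 and the others by 0.98 and 1.00. In lung they lay between -0.81 and -0.53, and 1 of them passed the test (-0.73, adjusted p = 0.0238 from limma). Those of H2-K1 also differed: the brighter had -0.83 in ileum and -0.91 in lung, while the second had -0.64 in ileum (adjusted p = 0.108 from limma) and -1.39 in lung (adjusted p = 0.00327 from limma). Class I heavy chains are near-identical in long stretches, and probe sequences were not used here, so signal shared between H2-K1, H2-D1 and other heavy chains was not tested.

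**Figure D3:**
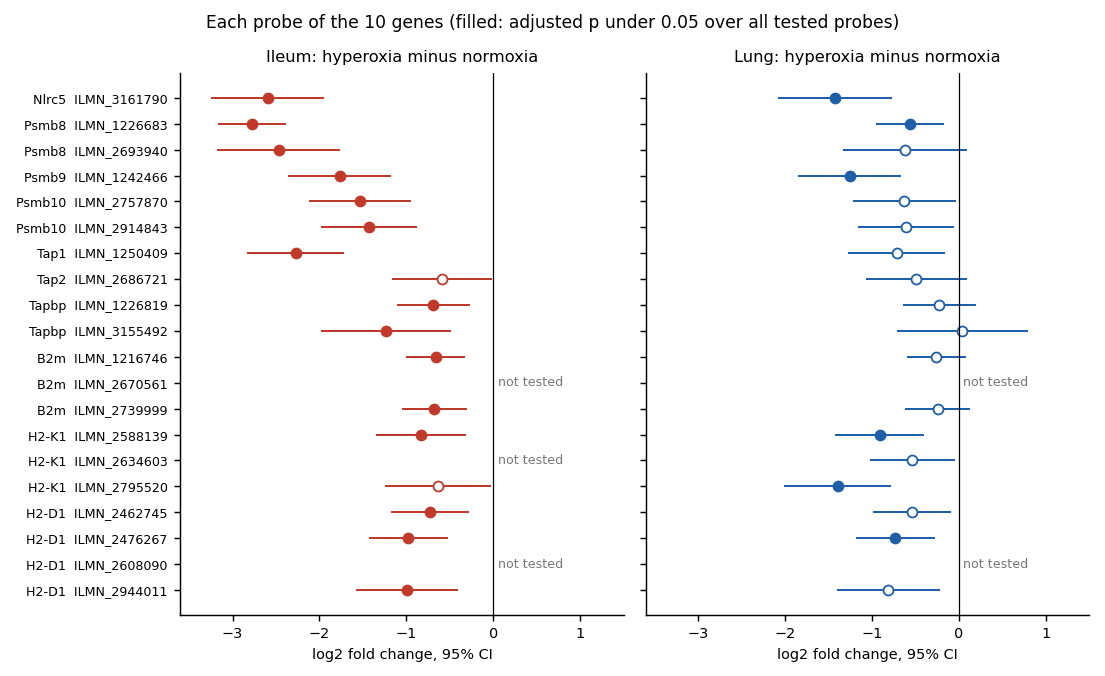
Log2 fold change with its 95% confidence interval for each of the 20 probes in ileum and lung, with filled points for an adjusted p under 0.05 over all tested probes from limma. In ileum 15 of 17 tested probes are filled, and the other 2 belong to Tap2 and H2-K1.

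Over the 12 arrays the 10 genes moved in parallel to different degrees. The correlation between pairs of them had a median r of 0.77, with the highest for Psmb9 and Psmb10 (0.94) and the lowest for Psmb10 and Tap2 (0.16). Psmb8 and Tap1, neighbours on the chromosome, had r of 0.93, while Psmb9 and Tap1, whose promoter windows overlap, had 0.66. Within the 6 ileum arrays r was 0.98 and 0.97 for these pairs, and within the 6 lung arrays 0.78 and 0.92. For Psmb10 and Tap2 it was 0.61 within ileum and 0.83 within lung. Values within a tissue carry the exposure difference. Those over the 12 arrays, which share 4 groups, carry the differences between the tissues too. Among 10218 other genes, the mean standardized signal of the 10 was followed most closely by Ly6d (r = 0.97), Zdhhc7 (0.97), Stard3nl (0.95), Nipal3 (0.94), Rnf31 (0.93), Cd3e (0.93), Pias4 (0.93), Lag3 (0.93), Cfl1 (0.92) and Cd3g (0.92). Of these, Cd3e and Cd3g are chains of the T cell receptor complex and Lag3 is a receptor of activated T cells. Within the 6 ileum arrays the closest were Krt23, Retsat, Itpr3, Csnk1d, Niban2, Kcnn4, Ccl5, R3hcc1, Zbtb45 and Tiam1, with r of 0.993 to 0.997.

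The proteasome genes outside the immunoproteasome had log2 fold changes between -1.28 and 1.05 in ileum, against a median of -1.77 for the 3 immunoproteasome subunits. None of the 3 constitutive catalytic subunits that they replace passed the test in ileum: Psmb5 had a log2 fold change of -0.03, Psmb6 0.17 and Psmb7 0.12. Of the 8 other 20S core subunits tested, 3 fell (Psma5 by 0.91, Psmb2 by 0.98 and Psmb4 by 0.65), with a median of -0.15. Of the 16 tested subunits of the 19S regulatory particle, which feeds ubiquitinated proteins into the core, 3 fell and 1 rose (Psmc6, 1.05), with a median of -0.12. The activator PA28 is also induced by interferon-gamma. Its subunits Psme1 and Psme2 fell by 1.09 and 1.04 on the log2 scale (adjusted p = 9.41e-04 and 0.0186 from limma), as did the nuclear activator Psme3 by 0.70, while Psme4 had 0.42 and did not pass. Of 4 assembly chaperones tested, Psmg3 fell (by 1.28), and Pomp, which helps build the immunoproteasome, had -0.46 and did not pass.

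In the lung, the constitutive catalytic subunits Psmb5 (0.87, adjusted p = 0.0401 from limma) and Psmb7 (0.54, adjusted p = 0.0478 from limma) rose, where 9.9% of all genes tested rose, while Psmb8 and Psmb9 fell. Both calls were lost with scaling to the 75th percentile, at 0.85 and 0.51, and that of Psmb7 also with the deposited normalized values. None of the 8 other 20S core subunits and none of the 4 activators passed in lung at an adjusted p under 0.05 from limma, and of the 15 subunits of the regulatory particle Psmd8 rose (0.83).

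**Figure D4:**
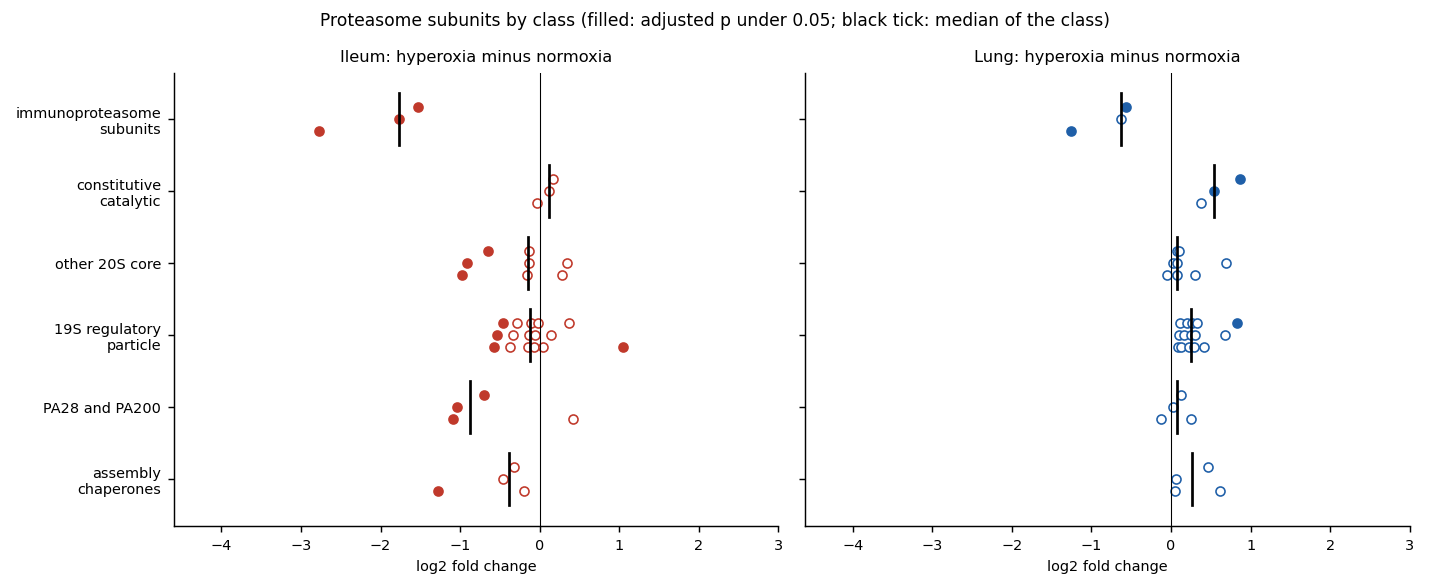
Log2 fold change of each tested proteasome gene by class in ileum and lung, with filled points for an adjusted p under 0.05 from limma and a black tick for the median of the class. The median of the immunoproteasome subunits is -1.77 in ileum and -0.63 in lung, and that of the constitutive catalytic subunits is 0.12 in ileum and 0.54 in lung.

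Of 5 genes listed for loading and trimming that were tested in ileum, 2 fell and 1 rose. The tapasin-related editor Tapbpl fell by 1.72 (adjusted p = 2.30e-04 from limma), and the chaperone Calr fell by 1.36. The gene that rose, by 1.07, was the protease Sppl2a, which is not an established partner of class I loading. The disulfide isomerase Pdia3 (0.32) and the trimming peptidase Erap1 (0.03) did not pass. In lung none of 4 passed at an adjusted p under 0.05, with Calr at 0.98 (adjusted p = 0.0502 from limma). Of the 12 other class I heavy chains tested in ileum, 7 fell and none rose, with a median of -0.95. H2-M3 fell by 1.33, H2-Q8 by 1.51, H2-Q7 by 1.29 and H2-Bl by 1.17. Of the 11 tested in lung, 8 fell, with a median of -0.97, among them H2-Q8 by 2.33, H2-Q6 by 2.15 and H2-Q7 by 1.37. H2-M2 was not detected on any hyperoxia lung array and was at least 2.08-fold lower there (adjusted p = 7.31e-05 from limma). With scaling to the 75th percentile 6 of the 11 fell in lung.

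MHC class II genes, which present peptides taken up from outside the cell and are switched on by the related transactivator Ciita, were set beside them. In ileum 8 of 10 fell, with a median log2 fold change of -1.18, the same to 2 decimals as that of the 10 class I genes. H2-DMa fell by 1.96, H2-Ab1 by 1.48, H2-Eb1 by 1.60 and the invariant chain Cd74 by 1.42. In lung 2 of 10 fell, H2-Ob by 1.21 and H2-Oa by 1.29, and the median was -0.24.

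Of 23 interferon-induced genes outside presentation that were tested in ileum, 11 fell and none rose, with a median of -0.82. The ubiquitin-like modifier Ubd fell by 4.29 (adjusted p = 2.27e-06 from limma), Isg15 by 2.45, Ifit2 by 1.19 and the GTPase Irgm2 by 1.20. The other 12 did not pass in ileum. In lung, 6 of 22 fell and 3 rose, with log2 fold changes between -1.92 and 1.86 and a median of -0.12. The GTPases Ifi47, Irgm2, Igtp and Gbp2 fell there by 1.92, 1.42, 1.48 and 1.43. Of these, Ifi47 (0.04) and Gbp2 (-0.12) did not pass in ileum, while Igtp fell by 1.37 there. Of 10 tested genes of interferon-gamma signalling, 4 fell in ileum: the feedback inhibitor Socs3 by 1.03, the transcription factors Irf8 by 0.73 and Irf1 by 0.53, and the receptor chain Ifngr1 by 0.56. In lung 3 fell (the kinase Jak1 by 1.33, Ifngr1 by 0.85 and Irf1 by 0.66) and Socs3 rose by 1.90.

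**Figure D5:**
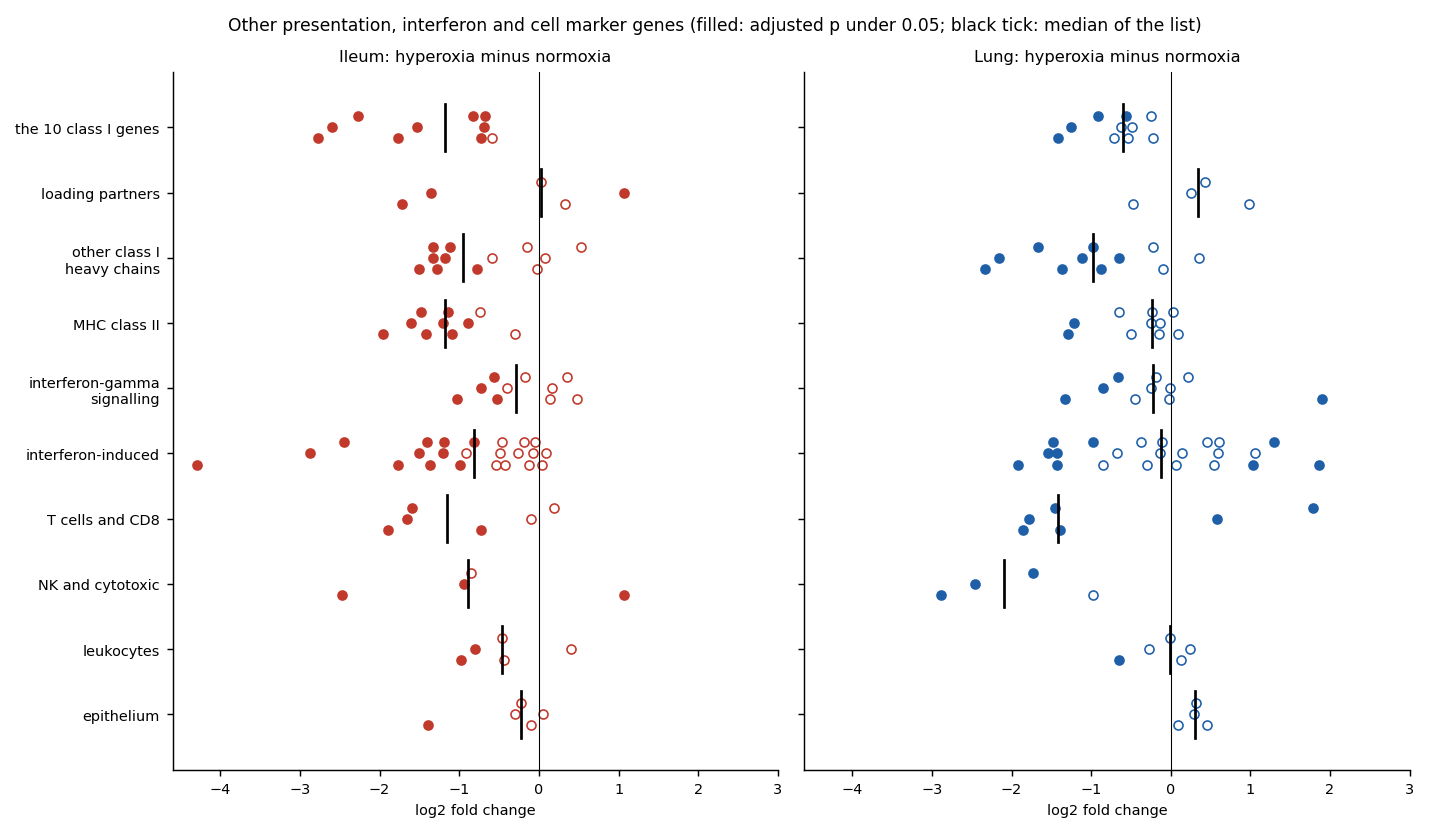
Log2 fold change of each tested gene of the 10 class I genes and of lists of related and marker genes in ileum and lung, with filled points for an adjusted p under 0.05 from limma and a black tick for the median of the list. Ubd, at -4.29 in ileum, is the point furthest left, and genes detected on no hyperoxia array stand at their fitted value. MHC class II has a median of -1.18 in ileum and -0.24 in lung.

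Markers of other cells were read on the same arrays, and the lists were mixed. Of 6 T cell markers tested in ileum, 4 fell. Cd3e was detected on no hyperoxia ileum array and was at least 2.93-fold lower there (adjusted p = 0.00182 from limma), and Cd3g and Cd3d fell by 1.65 and 1.59. Cd2 was also called lower, at least 1.58-fold, but lost the call without background correction and with an offset of 50. Cd8b1 (0.19) and Itgae (-0.10) did not pass. The mean log2 signal of these 6 markers was 6.63 to 6.89 in hyperoxia ileum and 7.62 to 8.01 in normoxia ileum, while their summed linear signal was 3165 to 3962 in hyperoxia ileum and 3422 to 3921 in normoxia ileum. That sum was mostly the signal of Cd8b1, whose mean log2 signal was 11.66 in hyperoxia ileum and 11.47 in normoxia ileum. Cd3e and Cd2 were at background on all hyperoxia ileum arrays. Of 4 markers of natural killer and cytotoxic cells, 2 fell and 1 rose in ileum: the chemokine Ccl5 was not detected in hyperoxia ileum and was at least 4.34-fold lower there, Klrd1 fell by 0.94 and Prf1 rose by 1.07. The summed signal of these 4 was 597 to 809 in hyperoxia ileum and 599 to 782 in normoxia ileum. Prf1 was the brightest of them, with a mean log2 signal of 9.01 in hyperoxia ileum and 7.94 in normoxia ileum. Of 5 general leukocyte markers, Coro1a fell by 0.81 and Rac2 by 0.98 in ileum (Rac2 lost its call without background correction, at -0.49), while Ptprc, which encodes CD45, had -0.43 and did not pass. Their summed signal was 3560 to 4159 in hyperoxia ileum and 4584 to 5928 in normoxia ileum. Of 3 B cell markers Fcmr fell by 1.48, of 5 macrophage and dendritic cell markers none fell and Csf1r rose by 0.69 (a call lost with scaling to the 75th percentile), and of 7 endothelial markers Pecam1 fell by 0.74 and Tek rose by 0.59 (a call lost without background correction and with that scaling). Of 5 epithelial markers, Krt19 fell by 1.40 and Epcam had 0.05, with a summed signal of 18062 to 21905 in hyperoxia ileum and 23182 to 28021 in normoxia ileum. Of the 8 ileum markers used above to check the tissue, 5 fell in hyperoxia ileum, with Fabp6, a bile acid binding protein of enterocytes, lower by a log2 fold change of -2.56, and their mean log2 signal was 11.37 to 11.68 in hyperoxia ileum and 12.13 to 12.29 in normoxia ileum. The part of cell composition in the changes of the 10 genes was not tested.

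In lung, 4 of 6 T cell markers fell and 2 rose: Cd2, Cd3e, Cd3d and Cd3g fell by 1.79, 1.46, 1.85 and 1.39, and Itgae and Cd8b1 rose by 1.78 and 0.58, the call of Cd8b1 being lost with scaling to the 75th percentile. Their mean log2 signal was 7.05 to 8.08 in hyperoxia lung and 8.07 to 8.33 in normoxia lung. Their summed linear signal, in which Cd8b1 was the brightest, was 2445 to 3328 in hyperoxia lung and 2261 to 2886 in normoxia lung. Of 4 markers of natural killer and cytotoxic cells 3 fell. Ccl5 fell by 2.88 on the log2 scale, Klrd1 fell by 1.73 and Nkg7 fell by 2.45, and the list had a summed signal of 358 to 603 in hyperoxia lung and 1181 to 1842 in normoxia lung. Leukocyte markers had a summed signal of 10177 to 17919 in hyperoxia lung and 12189 to 15187 in normoxia lung, and Ptprc had a log2 fold change of -0.28. Of 7 endothelial markers 5 fell in lung, Tek by 2.45, Vwf by 1.74, Cldn5 by 0.94 and Pecam1 by 0.78 among them, with a mean log2 signal of 10.05 to 10.39 in hyperoxia lung and 11.12 to 11.24 in normoxia lung. The 3 CD3 chains were called lower in both tissues, and the part of these cells in the differences between ileum and lung was not tested.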

How the data were processed

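RNA was read on 12 single-colour MouseWG-6 v2.0 bead arrays. The authors deposited raw bead intensities, which the submitters' processing notes tie to GenomeStudio 2011.1, neither background-subtracted nor normalized. The deposited detection p-values compare each probe with the negative control probes of its array. A second deposited set of normalized intensities, made by a method not given in the sources used here, served as an alternative. The function neqc of limma 3.58.1 (R 4.3.3, offset 16) corrected the background, applied quantile normalization and took log2. Testing in a tissue required a detection p under 0.05 on at least 3 of its 6 arrays, and a gene took its brightest tested probe. Of the probes, 34885 had 1 symbol and were used, 18 had several and 10378 had none. A single limma fit over all 12 arrays estimated 4 group means, with moderated statistics and the Benjamini-Hochberg adjustment over all genes of a comparison. The model was tested on simulated data. A gene detected on no array of a group is given as a bound: the mean of the brighter group against, per array, the higher of the lowest detected signal and the probe's own. All 10 genes are named, and of each other list up to 4 genes by the size of the moderated statistic, or any gene of a list of 6 or fewer tested. A gene named in a tissue may also be given in the other. Gaps between arrays named in the text were read after their values were seen. Members and lists were chosen with earlier results of these data known, and some listed genes (H2-Q4, H2-L and Lck among them) have no probe named here and were not analysed here. The alternatives left out the background correction, scaled arrays to the 75th percentile, or used the deposited values, an offset of 50, no or a stricter detection filter, each tissue alone, an ordinary linear model, trend and robust moderation, the replicate number as a block, weighted arrays, averaged probes, probes in place of genes, signal over background as a covariate, a 2-fold limit and leaving out each array. Promoters are from RefSeq (GRCm38.p6). Python 3.11.15 and matplotlib 3.10.9 drew the figures.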

Additional observations from a re-analysis of the deposited data

Results flagged for a closer look

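For 2 of the 10 genes the exposure effect differed between the tissues by the test of the difference itself. In both it was more negative in ileum, and 14.1% of all 10228 genes tested had a called difference in this direction. The ileum effect minus the lung effect was -2.22 on the log2 scale for Psmb8 (adjusted p = 6.55e-05 from limma), and all 3 hyperoxia arrays lay below all 3 normoxia arrays in each tissue. It was -1.56 for Tap1 (adjusted p = 0.00701 from limma), whose arrays did not overlap either, although in lung they nearly touched (8.56 against 8.61). Hyperoxia lay below normoxia without overlap for 21.1% of all genes tested in ileum and 20.9% in lung. Both calls held with each array left out, and that of Tap1 was lost without background correction.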

How the results depend on the processing

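No result of the 10 genes that had been called changed direction under any alternative. In ileum, 9 of the 10 genes were called, 5 with a 2-fold limit, 15 of 17 with probes in place of genes, and 6 to 9 with an array left out. In lung, 4 were called, 8 with array weights, 2 with a 2-fold limit and 2 to 6 with an array left out. The difference between the tissues was called for 2 genes, for 1 without background correction, for 4 with array weights and for 2 to 3 with an array left out. Normoxia ileum against normoxia lung was called for 3 genes, for 1 with an ordinary linear model, with the replicate block or with a 2-fold limit, and for 1 to 3 with an array left out. The causes were not tested. Within a tissue, replicate numbers did not pair hyperoxia with normoxia arrays (correlations of deviations -0.25 to -0.02). Whether a lung and an ileum array came from the same animal was not tested. The comparisons between tissues treat these arrays as independent. With the replicate block, 9 genes were called in ileum, 3 in lung (without Psmb8) and 3 for the difference (with Nlrc5). Over all genes, 2995 were called in ileum, against 642 with the covariate, 939 with a 2-fold limit, 1465 with ileum fitted alone, 4673 with array weights, and 1895 and 1401 without normoxia ileum replicates 2 and 3. In lung 2297 were called, against 3851 with array weights and 993 with a 2-fold limit. For the difference 2778 were called, against 4400 with array weights and 1174 with the covariate, and for normoxia ileum against lung 6744, against 3963 with a 2-fold limit. Of the called listed genes, 0 changed sign under the scaling and background alternatives and 14 calls were lost. The number of arrays limits the precision, and signals near background, as for Nlrc5, depend on the background correction.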

Other observations

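Of 8 listed partners of Nlrc5 at the SXY box of class I promoters, 6 were tested in ileum. The regulatory factor X subunit Rfxap fell by 0.67, and 1 of 6 is near the 14.1% of all genes that fell in ileum. Rfxank (-0.42), Nfya (-0.14), Nfyb (-0.21), Nfyc (-0.30) and Creb1 (0.48) did not pass. Rfxank, Nfya and Creb1 were not detected on every ileum array, so a missing call says little for them. In lung Creb1 was detected on no hyperoxia array and was at least 1.66-fold lower there (adjusted p = 0.00398 from limma), and Rfxap had 0.21. Among class I-like molecules, which resemble class I heavy chains but present other ligands or none, 0 of 4 passed in ileum at an adjusted p under 0.05 from limma (Cd1d1 0.28, Mr1 0.17, Hfe -0.06 and Fcgrt 0.00). In lung Cd1d1, which presents lipids, fell by 1.15, and 4 others did not pass. B cell markers fell in lung, Fcmr by 2.32, Cd79b by 1.62 and Blk by 1.29, and the complement genes C1qa, C1qb and C1qc of macrophages rose there by 1.37, 1.47 and 1.24.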
